A study of Homo sapiens with 6 samples.

Results

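The genes described here are 48 genes of the mitotic spindle and of chromosome segregation, measured by RNA sequencing in the human hepatic stellate cell line LX-2. They were chosen by name for their place in mitosis, as the rows with an Ensembl identifier and 1 of the 48 symbols in a deposited table with 60605 Ensembl rows, and the rule itself holds names only. All 48 passed the filter on low counts, which kept 16582 genes. For 24 h the LX-2 cells grew in medium that HCT116, a human colorectal carcinoma line, had conditioned. In the control group, Vector-CM (n = 3), the HCT116 cells carried the empty lentiviral vector. In the other group, FGFBP1-CM (n = 3), they overexpressed FGFBP1, which binds fibroblast growth factors outside the cell and carries them, from the same kind of vector, in clones selected with puromycin. FGFBP1 was altered in the tumor cells and not in LX-2, so its count in LX-2 checks no label. Both groups are therefore the same stellate line in HCT116 medium, and neither received medium without tumor cell products. The labels number the libraries but do not say that they came from separate cultures, so the p-values measure only the spread between these libraries.

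Cells divide their chromosomes on a spindle of microtubules. Motor proteins of the kinesin family build and move the spindle, kinetochores tie each chromosome to it, and a checkpoint holds the anaphase-promoting complex until all chromosomes are attached. Cyclin B with CDK1, the Aurora kinases and PLK1 drive entry into mitosis, condensin and topoisomerase II compact and untangle the chromosomes, and cytokinesis factors then part the daughter cells. Transcripts of these genes accumulate in G2 and M phase, and many of their promoters carry a cell cycle gene homology region (CHR), read by the MuvB complex with MYBL2 or FOXM1, next to CCAAT boxes bound by NF-Y. Stellate cells begin to divide when they are activated, and LX-2 is a dividing line. In RNA from a whole culture, fewer cells in mitosis and less transcript per mitotic cell cannot be told apart.

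The promoters of 4 members are shown because these letters are what the members share that their names did not use. ASPM and HMMR were the members of lowest p among those higher in FGFBP1-CM, and CDK1 and KIF20A were among those lower. Each run holds the 200 bases before the RefSeq start (GRCh38.p14), at chr1:197146670-197146869 (minus strand), chr5:163460432-163460631 (plus), chr10:60778131-60778330 (plus) and chr5:138178912-138179111 (plus). Capitals mark the CHR letters TTTGAA or TTTAAA and the CCAAT box, each read on both strands, so that TTCAAA and ATTGG are the same motifs on the other strand, TTTAAA is its own reverse, and CCAAT and ATTGG can overlap.
ASPM promoter: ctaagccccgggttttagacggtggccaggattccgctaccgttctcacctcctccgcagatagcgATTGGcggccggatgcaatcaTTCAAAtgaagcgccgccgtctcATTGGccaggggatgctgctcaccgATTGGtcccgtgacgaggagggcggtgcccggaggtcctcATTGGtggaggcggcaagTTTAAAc
HMMR promoter: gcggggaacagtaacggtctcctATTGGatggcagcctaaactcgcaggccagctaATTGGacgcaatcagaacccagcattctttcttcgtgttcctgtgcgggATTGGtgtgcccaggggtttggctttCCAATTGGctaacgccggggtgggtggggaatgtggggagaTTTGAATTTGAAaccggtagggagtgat
CDK1 promoter: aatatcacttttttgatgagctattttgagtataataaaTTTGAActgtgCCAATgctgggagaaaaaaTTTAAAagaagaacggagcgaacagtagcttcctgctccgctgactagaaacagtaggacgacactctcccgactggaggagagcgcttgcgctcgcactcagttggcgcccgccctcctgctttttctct
KIF20A promoter: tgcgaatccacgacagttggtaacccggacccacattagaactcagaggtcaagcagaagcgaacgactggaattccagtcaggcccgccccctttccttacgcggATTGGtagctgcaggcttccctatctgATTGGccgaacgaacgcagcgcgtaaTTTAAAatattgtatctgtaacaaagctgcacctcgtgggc

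Within these 200 bases ASPM held 4 CCAAT boxes, HMMR 5, KIF20A 2 and CDK1 1. RefSeq windows of 300 bases, from 250 before to 50 after a start, were found for 42 of the 48 members (56 windows, since some genes have several starts). TTTGAA was in 62.5% of the members' windows and in 15.2% of all 35116 windows. TTTAAA was in 28.6% and 12.2%, and CCAAT in 66.1% and 34.6%. Either CHR form together with CCAAT was in 53.6% of the members' windows and in 9.27% of all windows. Both directions held these letters. With an unadjusted p under 0.05, either CHR form was found in 8 of 8 members higher in FGFBP1-CM and in 6 of 8 lower that had a window, and in 25 of the 26 other members.

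A second set of sequences is shown because base composition ran with the direction of change, as described further on. These are the 90 coding bases from the middle of the longest annotated coding sequence (GENCODE release 29, sense strand, exonic), with G and C in capitals. CENPE (coding bases 4009 to 4098 of 8106) was higher in FGFBP1-CM libraries, and UBE2C (226 to 315 of 540) and CDC25B (826 to 915 of 1743) were lower.
CENPE coding: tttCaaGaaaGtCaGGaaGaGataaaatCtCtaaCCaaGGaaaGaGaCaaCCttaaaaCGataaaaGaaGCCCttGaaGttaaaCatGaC
UBE2C coding: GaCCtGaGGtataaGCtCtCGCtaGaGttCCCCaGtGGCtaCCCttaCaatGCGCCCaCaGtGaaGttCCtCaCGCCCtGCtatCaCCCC
CDC25B coding: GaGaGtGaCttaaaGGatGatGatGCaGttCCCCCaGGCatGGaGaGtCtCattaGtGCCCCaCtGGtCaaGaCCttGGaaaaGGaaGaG

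Over the whole coding sequence, G and C made up 35.3% of CENPE, 55.2% of UBE2C and 60.2% of CDC25B.

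Between 13992930 and 18494548 counts fell on genes in each library. Of the variance of log2 CPM (a gene's count scaled to the TMM library size), 43.6% lay on the first principal component, with the 3 FGFBP1-CM libraries on one side and FGFBP1-CM replicate 1 far beyond the other two. Stellate markers such as VIM, COL1A1 and PDGFRB were detected, while others were low or absent. ACTA2 had 59 to 84 counts per library, PDGFRA 12 to 24 and DES 0 to 4, and LRAT had 0 counts in all 6 libraries. VIM, with 35166 to 44146 counts, was the largest of the 16 in every library. The 16 stellate markers summed to 3760 to 4020 CPM for Vector-CM and to 2880 to 3460 CPM in FGFBP1-CM. Of the 14 tested, 13 had a log2 fold change below 0, where 8134 of all 16582 tested genes did, and of these 13 TIMP1 passed. Of 20 colorectal epithelial markers, 14 had at most 3 counts in each library and 4 had 0 in all, and their sum was 5.22 to 7.94 CPM in Vector-CM and 4.74 to 6.41 CPM in FGFBP1-CM. The 15 hepatocyte markers summed to 42.7 to 45.7 CPM for Vector-CM and to at most 29 CPM in FGFBP1-CM. Of the 7 tested, 4 passed, all lower (ALB, APOB, AFP and FGA), with at most 65 counts in any library. Over all tested genes 0.0663% passed on that side, which is not a like background. FGA had 14, 13 and 16 counts in Vector-CM and 1, 2 and 0 in FGFBP1-CM, and APOB 57, 41 and 59 against 4, 7 and 3. They passed the filter on low counts through their Vector-CM libraries, so lower values were favored among the markers tested. SERPINA1, with 307 to 537 counts, did not pass. The part of the stellate and hepatocyte markers in the results below was not tested.

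The mitotic genes were abundantly expressed in LX-2 cells in both media. Levels between genes were compared as FPKM, the authors' fragment count scaled to gene length and library size, averaged over the 6 libraries. The median member stood at 33.2 FPKM, above 92.9% of the tested genes. TOP2A, the topoisomerase that untangles sister chromatids, was the highest at 191 ± 27.2 FPKM (SD, n = 6). It was followed by CCNB1, the cyclin that drives CDK1 into mitosis, at 147 ± 5.14 FPKM, and UBE2C, the ubiquitin-conjugating enzyme of the anaphase-promoting complex, at 138 ± 13.2 FPKM. The order of CCNB1 and UBE2C was not the same in both media. CCNB1 was at 144 ± 4.01 FPKM in Vector-CM and 150 ± 4.27 FPKM in FGFBP1-CM (SD, n = 3 each). UBE2C was at 148 ± 2.94 FPKM in Vector-CM and 128 ± 10.9 FPKM in FGFBP1-CM (SD, n = 3 each). TPX2, which brings Aurora A to the spindle, stood at 124 ± 6.65 FPKM, and ANLN, the cytokinesis scaffold anillin, at 75.5 ± 8.38 FPKM.

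Subunits of the same complex stood at unlike levels. In the NDC80 complex, which grips microtubules at the kinetochore, NDC80 was at 32.5 ± 2.03 FPKM, NUF2 at 24.4 ± 2.02 FPKM and SPC25 at 5.33 ± 0.891 FPKM (SD, n = 6). In the chromosomal passenger complex, which corrects wrong attachments, BIRC5 (survivin) was at 41.8 ± 1.76 FPKM, INCENP at 40.5 ± 1.86 FPKM and the kinase AURKB at 34.5 ± 3.33 FPKM. Among condensin genes, SMC4 was at 39.2 ± 4.41 FPKM, SMC2 at 24.4 ± 3.59 FPKM, NCAPH at 22.8 ± 0.543 FPKM and NCAPG at 20.9 ± 2.13 FPKM. SPC25 was thus far below NDC80 and NUF2, while these passenger subunits lay close together. Outside the 48 members, SPC24 of the NDC80 complex was at 13.3 ± 0.892 FPKM and the condensin subunit NCAPD2 at 85.4 ± 6.22 FPKM (SD, n = 6). The kinesins ranged from 7.41 FPKM (KIF18A) to 54.2 FPKM (KIF2C), and the checkpoint genes from 22.5 FPKM (MAD2L1) to 47.8 FPKM (BUB1).

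**Figure D1:**
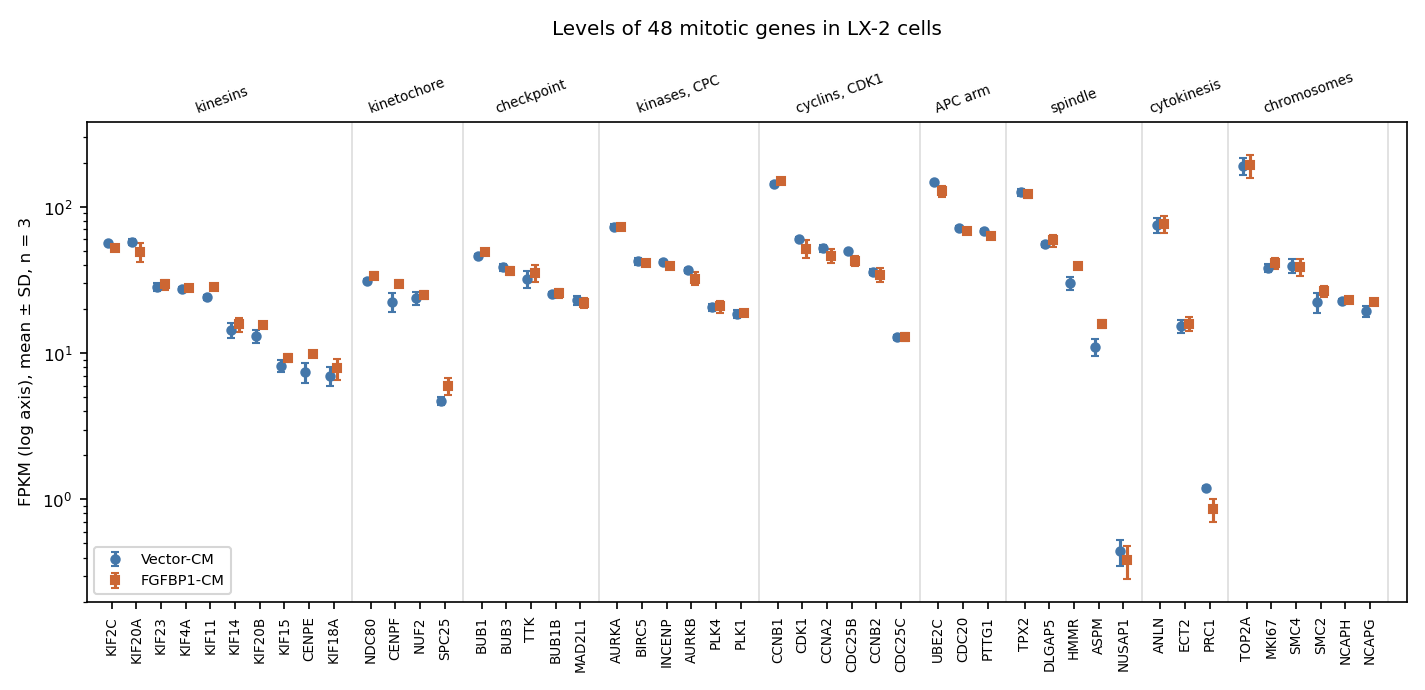
FPKM of each member on a log axis, as mean ± SD of the 3 Vector-CM libraries (circles) and the 3 FGFBP1-CM libraries (squares), grouped by role in mitosis. Most members lie between 5 and 200 FPKM, TOP2A is highest at 191 FPKM, and PRC1 and NUSAP1 lie far below the rest at 1.02 and 0.413 FPKM.

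PRC1, which bundles the central spindle, and NUSAP1, a spindle-associated microtubule binder, stood apart at 1.02 ± 0.212 and 0.413 ± 0.0899 FPKM (SD, n = 6). Both share most of their exonic bases with another annotated gene on the same strand. For PRC1 this was 3181 of 5525 bases, shared with ENSG00000284946, and for NUSAP1 1787 of 2875 bases, shared with ENSG00000285920. The counts of ENSG00000284946 were 529, 369 and 429 under Vector-CM and 279, 386 and 395 under FGFBP1-CM. PRC1 itself had 115, 93 and 103 against 71, 76 and 90 counts, so that its neighbor had the larger count in every library. ENSG00000285920 had 0 counts in every library. How reads over shared exons were assigned is not given in the sources used here, and the levels of PRC1 and NUSAP1 are uncertain. In all, 17 members share exonic bases with another gene, 3 of them on the same strand, the third being BUB1B with the read-through gene BUB1B-PAK6, which had 1 count in all.

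Summed over the 48 genes, the level did not differ between the media beyond the spread between libraries. Vector-CM libraries averaged 9007 ± 421 CPM and FGFBP1-CM libraries 9033 ± 741 CPM (SD, n = 3 each). Replicates 1 to 3 summed to 9241, 8521 and 9260 CPM for Vector-CM and to 8196, 9301 and 9603 CPM for FGFBP1-CM. FGFBP1-CM held both the lowest and the highest library, and replicate 1 was the lowest. FGFBP1-CM replicate 1 had the lowest value of the 3 FGFBP1-CM libraries for 39 of the 48 members and the lowest of all 6 libraries for 25. In Vector-CM, replicate 2 was the lowest library of its group for 26 members and replicate 1 for 21.

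TOP2A shows this spread. Its level was 1353, 1045 and 1299 CPM with Vector-CM and 955, 1298 and 1395 CPM with FGFBP1-CM. The groups overlapped, with FGFBP1-CM replicate 1 the lowest and FGFBP1-CM replicate 3 the highest of the 6. Its log2 fold change was -0.02 (SE 0.1255 and adjusted p = 0.946, edgeR), and 0.13 without FGFBP1-CM replicate 1. The proliferation marker MKI67 averaged 497 ± 26.95 CPM for Vector-CM against 523 ± 49.7 CPM for FGFBP1-CM (SD, n = 3 each), and its groups overlapped as well.

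Single members lay on both sides. With the edgeR quasi-likelihood test adjusted over all 16582 genes, 1 of the 48 passed, ASPM, which was higher in FGFBP1-CM. Over all tested genes 0.121% passed (0.0543% higher, 0.0663% lower). At an unadjusted p under 0.05, 8 members were higher and 9 lower, 35.4% of the members, against a background of 21.8% of all tested genes (11.3% higher, 10.6% lower). The groups did not overlap for 17 members, 8 higher and 9 lower, where the background was 26.0% of tested genes (13.0% in each direction). A log2 fold change above 0 was found for 21 of the 48 members and for 50.9% of all tested genes. The median of the members was -0.01, and that of all tested genes 0.00448. Without FGFBP1-CM replicate 1 the members at an unadjusted p under 0.05 were 12 higher and 3 lower, where 7.80% and 6.98% of all 16880 genes tested in that fit were, and 27 lay above 0 (49.6% of all genes). Scaled by library size only they were 10 higher and 6 lower (14.2% and 7.75% of all genes), and 30 lay above 0 (57.5% of all genes). Correction for GC content and length moved them the other way, to 5 higher and 11 lower (10.6% and 10.8% of all genes), and 18 lay above 0 (50.3% of all genes). These shares are descriptions, since no test over the list was made. The 31 other members had log2 fold changes of at most 0.22 in size.

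**Figure D2:**
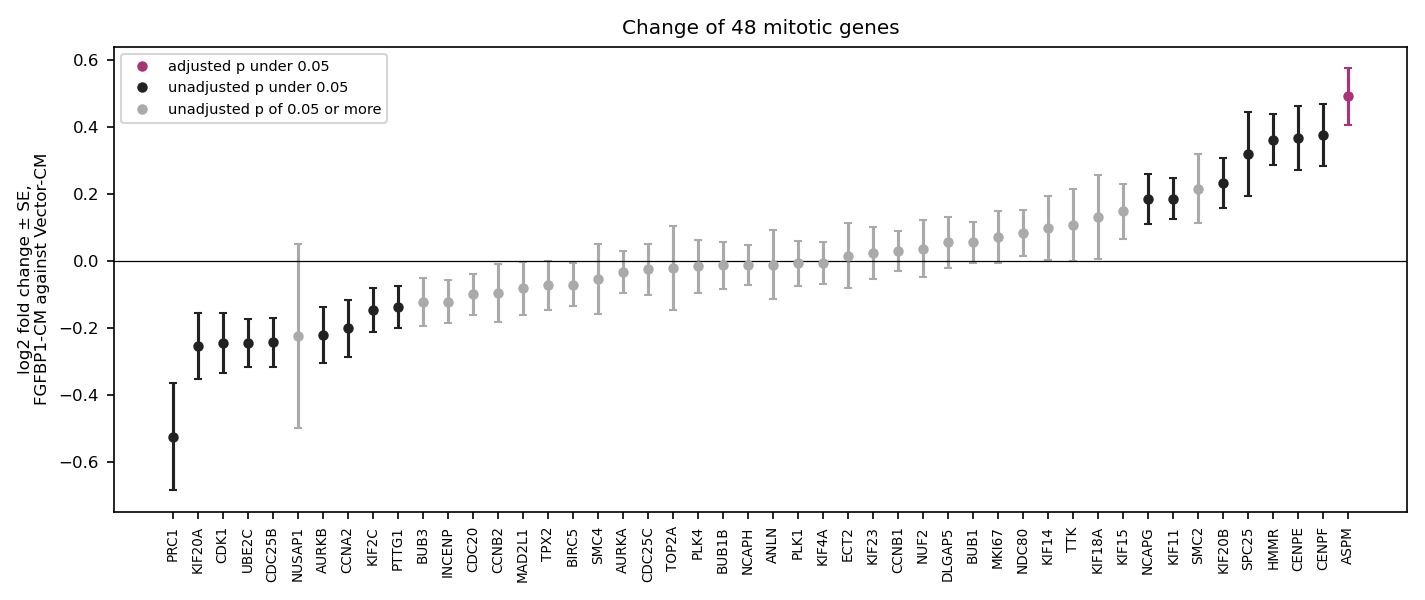
Log2 fold change of each of the 48 members, FGFBP1-CM against Vector-CM, with its standard error from edgeR, in rising order. ASPM, at 0.49, is the member past an adjusted p of 0.05, and the 16 further members with an unadjusted p under 0.05 lie at both ends, except that NUSAP1 and SMC2 lie among them with a larger p.

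ASPM, which focuses microtubules at the spindle poles and is needed for brain size, lies on chromosome 1 (197084128 to 197146694, minus strand, GRCh38 in GENCODE release 29, 28 exon blocks). Vector-CM replicates 1 to 3 had 153, 120 and 130 CPM, and the FGFBP1-CM replicates had 199, 179 and 188 CPM. Every FGFBP1-CM library was above every Vector-CM library. ASPM rose from 134 ± 16.95 to 189 ± 9.98 CPM (SD, n = 3), 0.49 on the log2 scale (SE 0.0845 and adjusted p = 0.0478, edgeR) or 1.41-fold. It is close to the threshold: the adjusted p was 0.0585 after correction for GC content and length, 0.0608 with a mean of at least 1 CPM, 0.173 and 0.184 in limma, and 0.171 and 0.235 without Vector-CM replicate 2 or 3. The log2 fold change lay between 0.42 and 0.60 in all 16 alternatives.

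HMMR, a spindle protein that is also a hyaluronan receptor, was at 130, 108 and 123 CPM with Vector-CM and 151, 150 and 163 CPM with FGFBP1-CM. The groups did not overlap, but the difference, 0.36 on the log2 scale (SE 0.0755), missed the threshold (adjusted p = 0.0561, edgeR). Of the 16 alternatives 6 called it, including the fit with a replicate block (adjusted p = 0.0482, edgeR) and that without FGFBP1-CM replicate 1 (adjusted p = 0.0385, edgeR). Without Vector-CM replicate 2 its log2 fold change was 0.29 (adjusted p = 0.171, edgeR). The block pairs libraries by replicate number, which the labels do not call a pairing. HMMR shares 113 exonic bases with the antisense gene HMMR-AS1, and the counting is not stated to use strand.

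At the kinetochore, CENPF, a large coiled-coil protein of the outer plate, was at 307, 230 and 262 CPM with Vector-CM and 326, 343 and 370 CPM with FGFBP1-CM. Its log2 fold change was 0.38 (SE 0.0921 and adjusted p = 0.0688, edgeR), and without FGFBP1-CM replicate 1 it was 0.42 and passed (adjusted p = 0.0488, edgeR). The lowest FGFBP1-CM library lay above the highest Vector-CM library, and Vector-CM replicate 2 was the lowest of the 6. SPC25 differed by 0.32 on the log2 scale (SE 0.126 and adjusted p = 0.166, edgeR) at the low level of 8.71 ± 0.556 against 10.8 ± 1.32 CPM (SD, n = 3). The other 2 kinetochore genes, NDC80 and NUF2, lay closer to 0. NDC80 was at 0.08 (adjusted p = 0.499, edgeR) and NUF2 at 0.04 (adjusted p = 0.839, edgeR), neither with an unadjusted p under 0.05. SPC24 of the same NDC80 complex, which is not a member, was on the lower side. Its log2 fold change was -0.18 (SE 0.0748, unadjusted p = 0.0309 and adjusted p = 0.184, edgeR). In this fit SPC25 was higher and SPC24 lower at an unadjusted p under 0.05, which 21.8% of all tested genes had, and neither passed. For SPC25 the unadjusted p was 0.0795 after correction for GC content and length and 0.0907 without FGFBP1-CM replicate 1 (edgeR). Whether the subunits of this complex differ in direction is therefore not settled.

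Of the 10 kinesins, 3 were higher and 2 lower at an unadjusted p under 0.05, where 11.3% and 10.6% of all tested genes were. Without FGFBP1-CM replicate 1 the counts were 6 and 0 (7.80% and 6.98% of all genes). They were 2 and 2 after correction for GC content and length (10.6% and 10.8% of all genes). CENPE, the motor that carries chromosomes to the metaphase plate, was at 86.2, 62.5 and 74.9 CPM with Vector-CM and 93.1, 95.3 and 101 CPM with FGFBP1-CM (log2 fold change 0.37, SE 0.0956 and adjusted p = 0.0754, edgeR). KIF20B, a cytokinesis motor, was at 98.7, 81.9 and 91.3 CPM against 102, 110 and 107 CPM (log2 fold change 0.23, SE 0.0748 and adjusted p = 0.112, edgeR). KIF11, the motor that pushes the spindle poles apart, was at 135, 127 and 129 CPM against 143, 152 and 150 CPM (log2 fold change 0.19, SE 0.0615 and adjusted p = 0.118, edgeR). For these 3 genes the groups did not overlap, and Vector-CM replicate 2 was the lowest library. KIF20A, the motor that brings passenger proteins to the midzone, was on the lower side, at 211, 230 and 232 CPM against 154, 209 and 202 CPM (log2 fold change -0.25, SE 0.0972 and adjusted p = 0.161, edgeR). Without FGFBP1-CM replicate 1, the lowest library, its log2 fold change was -0.13. KIF2C, which takes microtubules apart at centromeres, had -0.15 (SE 0.0656 and adjusted p = 0.213, edgeR), and -0.09 without that library.

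Of the 9 genes of the cyclins, CDK1, the CDC25 phosphatases and the anaphase-promoting complex arm, 8 had a log2 fold change below 0, and 7 when scaled by library size only. Of all 16582 tested genes, 8134 and 7053 did. UBE2C (chromosome 20, 45812576 to 45816957, plus strand) was at 188, 193 and 199 CPM with Vector-CM and 151, 159 and 180 CPM with FGFBP1-CM. Its log2 fold change was -0.24 (SE 0.0722 and adjusted p = 0.0957, edgeR). It passed without FGFBP1-CM replicate 3 (adjusted p = 0.0421, edgeR), but was -0.19 without FGFBP1-CM replicate 1 (adjusted p = 0.204, edgeR). All 3 FGFBP1-CM libraries were below all Vector-CM libraries. PTTG1 (securin), the inhibitor of separase that the same complex destroys, stood at -0.14 on the log2 scale (SE 0.0624 and adjusted p = 0.220, edgeR), and CDC20, the activator of that complex, had -0.10 (SE 0.0622 and adjusted p = 0.375, edgeR).

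CDC25B, the phosphatase that starts CDK1 activation, was at 192, 200.1 and 196 CPM with Vector-CM and 149.9, 181 and 166 CPM with FGFBP1-CM (log2 fold change -0.24, SE 0.0727 and adjusted p = 0.0977, edgeR). CDK1 was at 242, 232 and 245 CPM against 170.1, 209.6 and 228 CPM (log2 fold change -0.24, SE 0.08999 and adjusted p = 0.147, edgeR). The groups did not overlap for either gene, and FGFBP1-CM replicate 1 was the lowest library for both. CDK1 was the exception in base composition, with 35.8% GC and yet on the lower side. Its log2 fold change was -0.31 after correction for GC content and length (adjusted p = 0.0709, edgeR), passed in the corrected fit that also held a replicate block (adjusted p = 0.0453, edgeR), and was -0.13 without FGFBP1-CM replicate 1. CDC25B passed without FGFBP1-CM replicate 2 (adjusted p = 0.0336, edgeR), but was -0.17 without FGFBP1-CM replicate 1 (adjusted p = 0.22, edgeR). Both genes also passed without the filter on low counts. CCNA2, the cyclin of S and G2 phase, had -0.20 (SE 0.0855 and adjusted p = 0.194, edgeR) with overlapping groups, while the mitotic cyclin CCNB1 had 0.03 (SE 0.0607 and adjusted p = 0.810, edgeR).

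Among the mitotic kinases and passenger proteins all 6 log2 fold changes were below 0, but only 3 when scaled by library size only or in limma. Of all 16582 tested genes, 8134 were below 0, 7053 when scaled by library size only and 7032 in limma (pseudocount 1). AURKB alone of the 6 had an unadjusted p under 0.05. AURKB was at 80.8, 81.8 and 88.2 CPM with Vector-CM and 62.8, 78.9 and 74.0 CPM with FGFBP1-CM (log2 fold change -0.22, SE 0.0836 and adjusted p = 0.158, edgeR). The highest FGFBP1-CM library lay just under the lowest Vector-CM library. The spindle checkpoint genes (BUB1, BUB1B, BUB3, MAD2L1 and TTK) lay between -0.12 and 0.11 with overlapping groups, and none of the 5 had an unadjusted p under 0.05. After correction for GC content and length, BUB3 and MAD2L1 were both at -0.16 (unadjusted p = 0.0271 and 0.0367, edgeR). Of the 6 chromosome genes only the condensin subunit NCAPG had an unadjusted p under 0.05 without that correction. It was at 102, 85.6 and 97.1 CPM against 105, 106 and 113 CPM (log2 fold change 0.19, SE 0.0736 and adjusted p = 0.169, edgeR). NCAPG shares 1631 exonic bases with LCORL on the opposite strand. PRC1 had the lowest log2 fold change of all members, -0.52 (SE 0.160 and adjusted p = 0.103, edgeR), at 6.43, 6.74 and 6.93 CPM against 3.74, 4.78 and 5.52 CPM. The neighbor with which it shares exons, ENSG00000284946, had -0.44 (SE 0.1503 and adjusted p = 0.126, edgeR), and PRC1-AS1 had -0.64 (SE 0.195 and adjusted p = 0.1002, edgeR). NUSAP1, with 17 to 28 counts per library, was at 1.23, 1.81 and 1.82 CPM against 1.32, 1.76 and 1.04 CPM (log2 fold change -0.22 and adjusted p = 0.673, edgeR).

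**Figure D3:**
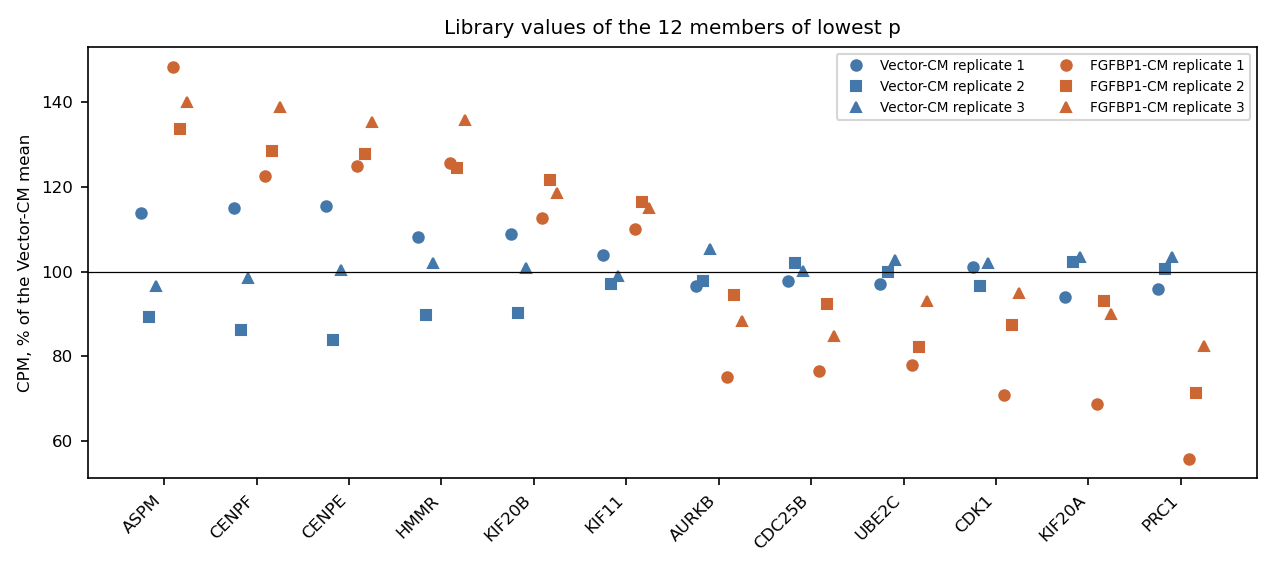
CPM in each library as a percentage of the Vector-CM mean, for the 12 members of lowest p, with circles, squares and triangles for replicates 1, 2 and 3. In all 12 the FGFBP1-CM libraries lie on one side of the Vector-CM libraries, and FGFBP1-CM replicate 1 is the lowest library in each of the 6 members on the lower side.

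The members on the higher side tended to be longer and poorer in GC than those on the lower side. GC content, pooled over the transcripts annotated for a gene, ran from 34.1% to 59.3% among the members, and was under 42% in 24 of them. The 8 members higher at an unadjusted p under 0.05 had 34.1% to 40.5% GC (median 37.9%) and a median of 5886 exonic bases. The 9 lower ones had 35.8% to 58.2% GC (median 49.2%) and a median of 3646 exonic bases. Splitting the members at 42% GC, a split chosen after the values were seen, gave 18 of 24 with a log2 fold change above 0 on the GC-poor side (median 0.10) and 3 of 24 on the GC-rich side (median -0.10). All tested genes leaned the same way: 64.6% of the 3418 genes in the same GC-poor range were above 0 (median 0.07), against 47.5% of the 12983 others (median -0.01).

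Across the 48 members the correlation of log2 fold change with GC content was -0.562 (Pearson) or -0.627 (Spearman), and that with the logarithm of exonic length 0.422 (Pearson). Across the 16401 tested genes with both values, the correlation with GC content was -0.161 (Pearson). These are correlations across genes of the same 6 libraries, which are not independent replicates. The correction for GC content and length took out the trend over all genes (Pearson -0.00779) and left part of that among the members (-0.417). After it, no member passed. The median was then 0.03 in the 24 GC-poor members and -0.08 in the 24 GC-rich members, and ASPM, CENPE, CENPF and HMMR stood at 0.42, 0.32, 0.31 and 0.29 with adjusted p of 0.0585, 0.0709, 0.0717 and 0.0688 (edgeR).

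**Figure D4:**
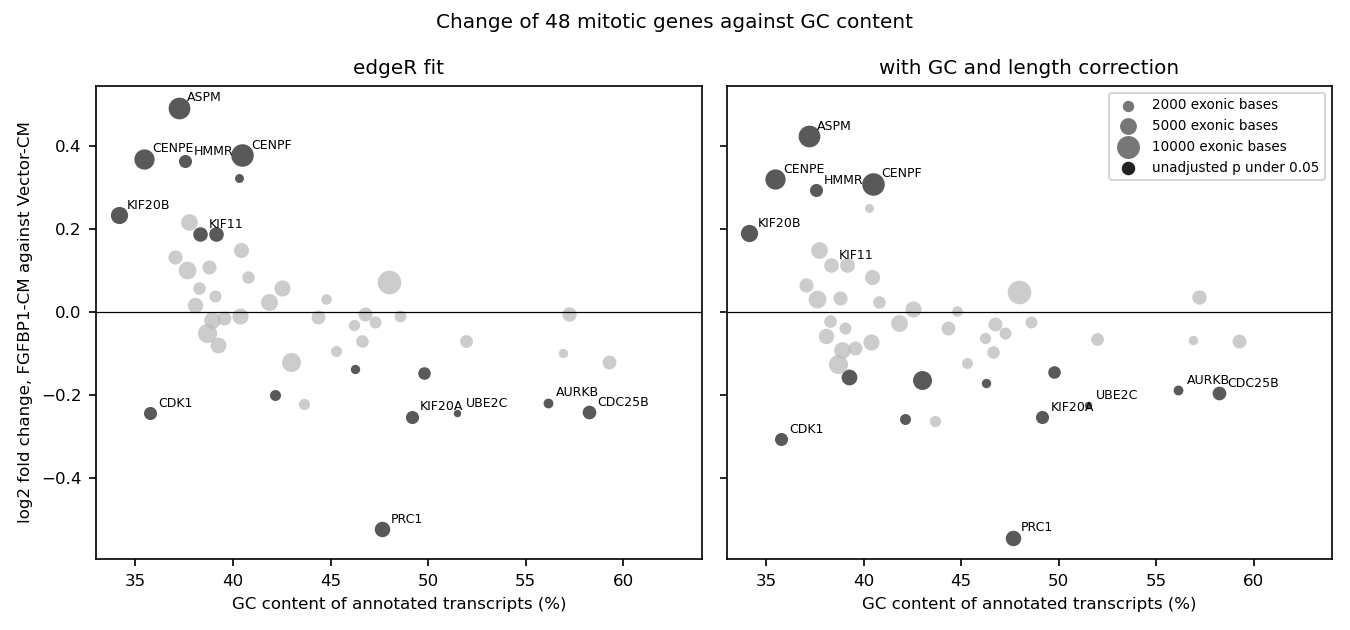
Log2 fold change of the 48 members against the GC content of their annotated transcripts in percent, in the edgeR fit (left) and after correction for GC content and length (right), with point area in proportion to exonic length and dark points for an unadjusted p under 0.05. On the left, the 8 dark points above 0 all lie at or below 40.5% GC, and CDK1, at 35.8%, is the GC-poor member far below 0.

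The balance of GC-poor to GC-rich members also varied within a group. The summed CPM of the 24 GC-poor members divided by that of the 24 GC-rich members was 1.14, 0.898 and 1.02 for replicates 1 to 3 of Vector-CM and 1.04, 1.12 and 1.21 for those of FGFBP1-CM. The groups overlapped, with means of 1.02 ± 0.121 and 1.12 ± 0.0850 (SD, n = 3), and the lowest library was Vector-CM replicate 2. Against the Vector-CM mean, the median GC-poor member was at 0.11, -0.16 and 0.03 on the log2 scale in Vector-CM and at -0.08, 0.13 and 0.21 in FGFBP1-CM. The median GC-rich member was at -0.06, 0.02 and 0.04 in Vector-CM and at -0.18, -0.05 and -0.05 in FGFBP1-CM. Thus the median GC-rich member was lowest in FGFBP1-CM replicate 1, while the GC-poor members were low in both Vector-CM replicate 2 and FGFBP1-CM replicate 1. The part of base composition in the differences between the groups was not tested beyond the correction.

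**Figure D5:**
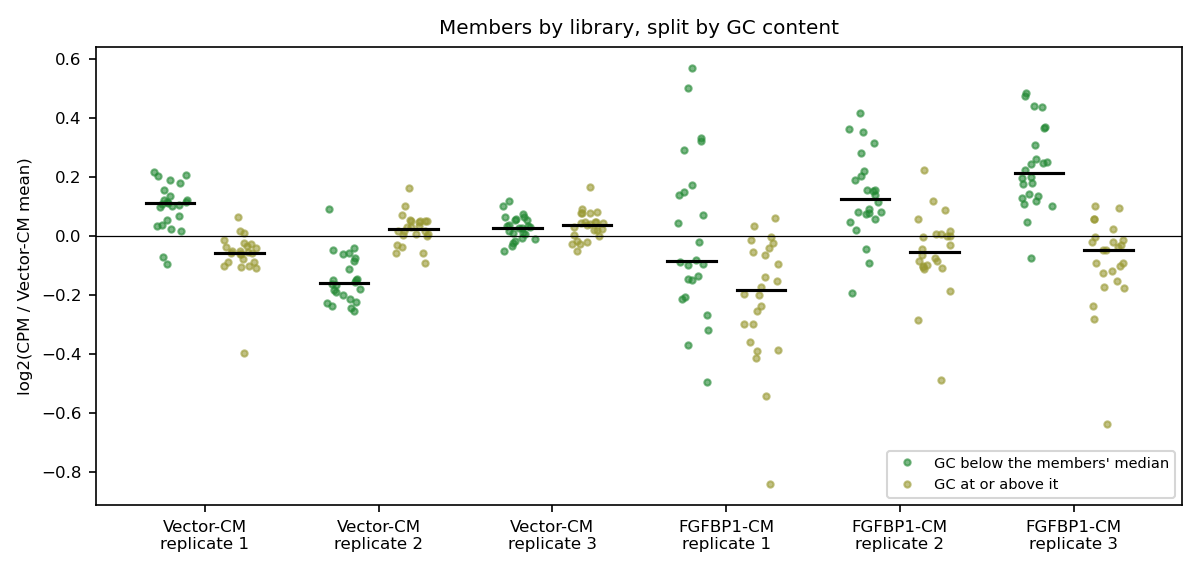
Log2 ratio of each member's CPM to its Vector-CM mean in each of the 6 libraries, with the 24 GC-poor members on the left and the 24 GC-rich members on the right of each library and bars at the medians. Both sets have medians below 0 in FGFBP1-CM replicate 1 (-0.08 and -0.18), and in FGFBP1-CM replicate 3 the GC-poor median is the highest of the 6 libraries (0.21).

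Other genes of mitosis, fixed as a list by their known roles, had both directions too. Of 103 such genes 102 were tested, and 0 passed in edgeR. At an unadjusted p under 0.05, 12 were higher and 13 lower (24.5%, against 21.8% of all tested genes), with a median log2 fold change of 0.01. Scaled by library size only, 16 were higher and 8 lower (14.2% and 7.75% of all genes). After correction for GC content and length, 9 were higher and 18 lower (10.6% and 10.8% of all genes). Without FGFBP1-CM replicate 1 the counts were 14 and 7 (7.80% and 6.98% of all genes). DESeq2 called 3 of the 102, against 622 of all 16582 tested genes. The 3 of lowest p among those higher were CKAP2L, a spindle protein (log2 fold change 0.25, SE 0.0629 and adjusted p = 0.0745, edgeR), CEP192, which recruits material to the centrosome (0.26, SE 0.0736 and adjusted p = 0.0891, edgeR), and HAUS1 of the augmin complex (0.26, SE 0.0750 and adjusted p = 0.0897, edgeR). Those lower were PKMYT1, a kinase that restrains CDK1 (-0.29, SE 0.0826 and adjusted p = 0.0913, edgeR), the minus-end motor KIFC1 (-0.25, SE 0.0780 and adjusted p = 0.103, edgeR) and NDE1, a dynein adaptor (-0.30, SE 0.0943 and adjusted p = 0.104, edgeR).

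The genes that act before mitosis had a different count. Of 53 DNA replication and G1/S genes none was higher and 16 were lower at an unadjusted p under 0.05 (30.2%). Of all tested genes 21.8% had such a p (11.3% higher, 10.6% lower). In this list 0 passed in edgeR, and the median log2 fold change was -0.09. Scaled by library size only, 2 were higher and 11 lower (14.2% and 7.75% of all genes). Without FGFBP1-CM replicate 1 none was higher and 9 were lower (7.80% and 6.98% of all genes). No test compared this list with the mitotic genes. The 3 of lowest p were the nucleotide synthesis enzymes TK1 (-0.35, SE 0.0732 and adjusted p = 0.0561, edgeR) and RRM2 (-0.33, SE 0.0780 and adjusted p = 0.0672, edgeR), and the licensing factor CDT1 (-0.35, SE 0.0802 and adjusted p = 0.0634, edgeR). Each of these 3 passed in 4 of the 16 alternatives. DESeq2 called 6 of the 53 genes of the list, against 622 of all 16582 tested genes.

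Of the transcription factors that read the CHR and neighboring elements, MYBL2 was at 98.2, 95.8 and 92.3 CPM with Vector-CM and 63.3, 80.8 and 68.4 CPM with FGFBP1-CM (log2 fold change -0.43, SE 0.0841 and adjusted p = 0.0561, edgeR). All 3 FGFBP1-CM libraries were below all Vector-CM libraries, and it passed in 6 of the 16 alternatives. E2F1, which drives entry into S phase, had -0.25 (SE 0.0630 and adjusted p = 0.0723, edgeR), CCND3, a G1 cyclin, -0.18 (SE 0.0702 and adjusted p = 0.167, edgeR), and LIN9, a MuvB subunit, 0.32 (SE 0.108 and adjusted p = 0.119, edgeR). FOXM1, named here for its role, had -0.06 (SE 0.0665 and adjusted p = 0.629, edgeR). The listed MuvB subunits besides LIN9 were RBBP4 at -0.16 (SE 0.0684 and adjusted p = 0.185, edgeR), LIN37 at -0.14, LIN52 at -0.04 and LIN54 at 0.06. Of NF-Y, NFYA had -0.17 (SE 0.0741 and adjusted p = 0.192, edgeR), NFYC -0.10 and NFYB -0.004. E2F1 is counted both among the cell cycle regulators and among the DNA replication and G1/S genes. Of the 31 cell cycle regulators tested, 1 was higher and 6 lower at an unadjusted p under 0.05, and 0 passed in edgeR. The share of 22.6% was close to the 21.8% of all tested genes (11.3% higher, 10.6% lower). Scaled by library size only, 3 were higher and 2 lower (14.2% and 7.75% of all genes). DESeq2 called 2 of the 31, against 622 of all 16582 tested genes.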

How the data were processed

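RNA sequencing of 6 LX-2 libraries (3 Vector-CM, 3 FGFBP1-CM, 24 h) was analysed. Paired-end reads were mapped by the authors using HISAT2 2.0.5 and assigned per gene with featureCounts 1.5.0-p3, and each gene's deposited raw count was taken as it stood. FPKM values were computed by the authors from count and gene length and were used for levels between genes. Both a poly(A) kit and depletion of ribosomal RNA are named in the study's methods. The submitters' processing notes name hg18 as the build, while the annotation release and the strand setting are not given in the sources used here. Coordinates, exon overlaps, GC content and lengths are those of GENCODE release 29 (GRCh38), which held 96.3% of the 60605 Ensembl identifiers, and need not be those used for counting. The 175 rows with other identifiers were left out.

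The test used edgeR 4.0.16 under R 4.3.3 (filterByExpr, TMM, quasi-likelihood F-test, Benjamini-Hochberg adjustment over 16582 genes, threshold 0.05), and standard errors were the absolute log2 fold change over the root of F. Levels within a gene are CPM of the TMM-scaled library size. A count of 0 allows up to 3 counts, or 0.158 to 0.217 CPM, and such floors cover counting error only. All members are counted, and given with values in every library were those past the threshold, then those of lowest p up to 12, and those with the highest and lowest fold change or FPKM. NCAPG and MKI67 were given in more detail than that rule after their values were seen. The members and lists were chosen with earlier results of these data known. E2F1 and CDC25A each stand in more than 1 of the other lists. With 3 libraries against 3, an exact permutation test cannot go below 0.1, so none was used.

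In 16 alternatives the scaling was changed to RLE or to library size alone, the filter was dropped (beyond 1 count) or raised to a mean of 1 CPM, DESeq2 1.42.0 or limma 3.58.1 (log2 FPKM with 1 or 0.1 added) replaced edgeR, replicate numbers entered as a block, the loess trend (span 0.3) of each library on GC content and length was removed with or without that block (98.9% of tested genes had both values), and each library was left out. The procedures were tested on simulated counts. Each pair of replicates differed by more than sampling noise, and none were merged. One sequence is not reported here.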

Additional observations from a re-analysis of the deposited data

How the results depend on the processing

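Across all genes 20 passed in the edgeR fit. RLE scaling gave 38, dropping the filter (beyond 1 count) 1382, requiring a mean of 1 CPM 11, DESeq2 622, limma (log2 FPKM, pseudocount 1 or 0.1) 1 each, the replicate block 121, correcting for GC and length 9, and doing so with the replicate block 173. Of the 48 mitotic genes, 1 passed in edgeR, 9 without the filter (5 higher, 4 lower), 4 in DESeq2 (all higher: ASPM, CENPE, CENPF and HMMR), 2 with the replicate block (ASPM and HMMR), 4 with both correction and replicate block (3 higher, 1 lower), and 0 at a mean of 1 CPM, in limma with pseudocount 1 or 0.1, or with correction alone. An unadjusted p under 0.05 was found there for 17, 13, 13 and 16 members. Of the further mitosis genes, 10 passed without the filter, 3 in DESeq2 and 1 with both correction and replicate block, against 0. The cause was not tested. Leaving out 1 library gave 4 to 911 genes in all, lowest without Vector-CM replicate 2 and highest without FGFBP1-CM replicate 2. It gave 0 to 3 mitotic genes, with 0 without Vector-CM replicate 2 or 3 and 3 without FGFBP1-CM replicate 1 or 2. At an unadjusted p under 0.05 it gave 10 to 19 mitotic genes, 11 and 10 of them without Vector-CM replicates 2 and 3. Of the further mitosis genes it gave 0 to 4 past the threshold and 14 to 29 at an unadjusted p under 0.05. The median FPKM of the members ranged from 32.2 to 33.6 in these fits, and 4 of the 5 members of highest FPKM were among the 5 of highest CPM. The log2 fold change of TOP2A changed sign when scaled by library size only (0.0107) and in limma with pseudocount 1 (0.00368) or 0.1 (0.00366), and ranged from -0.13 to 0.128 when 1 library was left out. Up to 9 members changed sign in a single alternative, and none of those 17 with an unadjusted p under 0.05 in the edgeR fit did so. With library size only, 30 of the 48 members lay above 0, against 21, and the median of all genes moved to 0.04. The deviations of same-numbered libraries from their group means had correlations of -0.116, -0.0161 and 0.145 (14937 genes). The labels do not state a pairing, and the main fit used none. The fits with a replicate block took the numbers as one, and genes that passed there rest on it. At 13992930 to 18494548 counts per library, all members but PRC1 and NUSAP1 had more than 100 counts in each library.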
